A study of Homo sapiens with 32 samples.

Results

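The ZBTB, ZSCAN, ZKSCAN and Krüppel-like (KLF) genes encode DNA-binding factors that read the genome with tandem C2H2 zinc fingers. They were taken from exon array data of LNCaP cells, an established androgen-responsive prostate cancer line, as every transcript cluster (the array's unit for a gene) with a single symbol starting ZBTB, ZSCAN, ZKSCAN or KLF and a digit. The rule found 61 genes among 13482 clusters with a single symbol and 16309 clusters in all, comprising 29 ZBTB, 12 ZSCAN, 4 ZKSCAN and 16 KLF symbols. RNA was taken after 24 hours with 10 nM R1881, a synthetic androgen (n = 4 arrays), or from cells kept in steroid-deplete medium (n = 4 arrays). Cells of both groups had spent 72 hours in medium with charcoal-stripped serum, so the comparison is of androgen added back against androgen withdrawn in 1 cell line. One of the KLF symbols, KLF3-AS1, belongs to an antisense long non-coding RNA and not to a zinc finger gene, and the other 60 are protein-coding genes.

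BTB domains let ZBTB proteins pair with one another and recruit corepressors and histone deacetylases, and the SCAN domain likewise lets ZSCAN and ZKSCAN proteins form dimers. ZKSCAN proteins carry a KRAB domain as well, which recruits the corepressor TRIM28. KLF proteins end in a trio of zinc fingers that bind GC-rich and CACCC motifs, and the family holds both activators and repressors with roles in epithelial growth and differentiation.

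The level of each gene was the log2 value made by RMA at gene level, a fold change is R1881 over steroid-deplete, and adjusted p-values come from limma across all clusters (Benjamini-Hochberg). The methods describe the treatment as done in quadruplicate without saying whether the 4 cultures of a group were raised apart, so the p-values measure the spread between these arrays. The median value per array was 6.22 to 6.31 with R1881 and 6.33 to 6.40 in steroid-deplete medium. R1881 replicate 4 and steroid-deplete replicate 1 stood apart on the second principal component, which held 8.27% of the variance. The androgen-induced genes KLK3, KLK2 and TMPRSS2 were higher by 1.82, 2.54 and 2.57 on the log2 scale with R1881, as the labels require. Of 7 listed prostate epithelial markers 2 were measured in clusters with a single symbol, and of 3 basal epithelial ones none. HOXB13 averaged 11.1 with R1881 and 11.6 in steroid-deplete medium, a fall of 0.44 on the log2 scale (adjusted p = 0.0018). EPCAM averaged 7.91 and 8.03 in the same order and did not pass an adjusted p of 0.05 (adjusted p = 0.586). Only 1 of 10 stromal, immune and endothelial markers passed an adjusted p of 0.05, which was CD68 (0.35 ± 0.08 on the log2 scale, SE, adjusted p = 0.0049).

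R1881 changed 5 of the 61 genes by at least 2-fold at an adjusted p under 0.005. ZBTB1, ZBTB16 and KLF4 rose, and ZBTB43 and KLF10 fell. Over all clusters, 1.94% rose and 2.04% fell by the same rule. Without a fold limit, at an adjusted p under 0.05, 8 of the 61 genes rose and 15 fell, against 10.5% and 19.8% of all clusters. These shares, 13.1% and 24.6% of the 61 genes, lie close to those of the array as a whole. When each array was centred on its median, 10 rose and 11 fell. The same centring turned the count over all clusters to 3097 higher and 2423 lower, against 1711 higher and 3230 lower without it, and moved the median change of all clusters to 0.10 on the log2 scale, against -0.003. In bulk RNA, fewer cells that express a gene and less of its RNA per cell cannot be told apart.

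**Figure D1:**
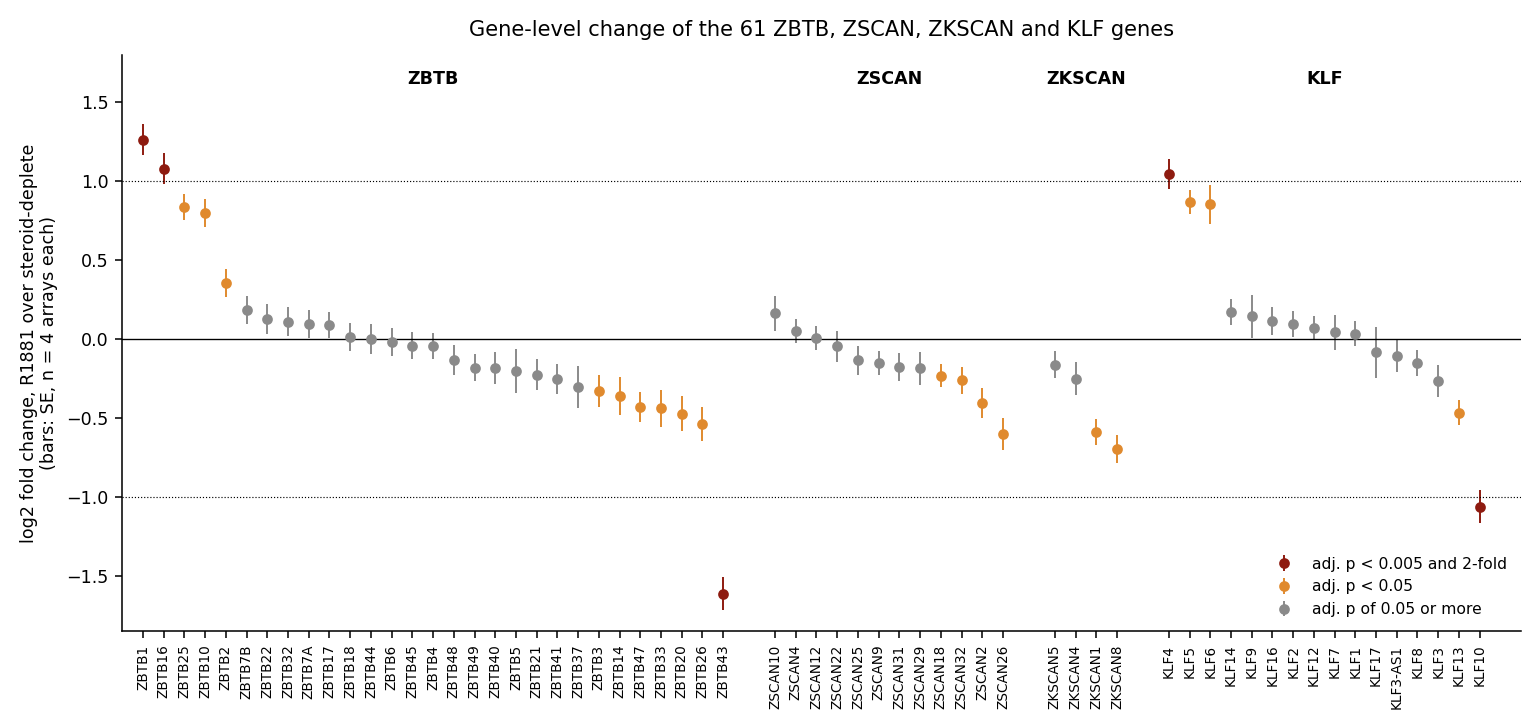
Log2 fold change of R1881 over steroid-deplete for each of the 61 genes (points, gene-level RMA; bars, SE, n = 4 arrays per group), ordered within ZBTB, ZSCAN, ZKSCAN and KLF, with dotted lines at 2-fold. The points run from ZBTB1 at 1.26 to ZBTB43 at -1.61, and 48 of the 61 lie within 0.5 of no change.

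The sequences around the RefSeq start sites of genes whose changes are described in detail are given first, since they show how differently these genes begin. ZBTB1 and ZBTB25, a head-to-head pair on chromosome 14, both rose, and the 2 windows shown for them share 148 bases on opposite strands. No other pair of a ZBTB1 window with a ZBTB25 window shares more than 22 bases. Each window runs from 250 bases before to 50 bases after an annotated start in GRCh38.p14 and is written in the direction of its gene. The ZBTB1 window is chr14:64503637-64503936 on the plus strand, and the ZBTB25 window is chr14:64503789-64504088 on the minus strand, out of 2 windows annotated for ZBTB1 and 4 for ZBTB25. KLF4, chr9:107489720-107490019 on the minus strand, and ZBTB43, chr9:126804790-126805089 on the plus strand, have a single window each and moved in opposite directions. KLF5 has 2 annotated starts, chr13:73054726-73055025 and chr13:73058755-73059054 on the plus strand, and is shown because its probe sets split into a higher and a nearly flat set. Capitals mark AGAACA, the hexamer that forms either arm of the element read by androgen and glucocorticoid receptors, the GC box GGGCGG and the CACCC box, each searched on both strands.
ZBTB1: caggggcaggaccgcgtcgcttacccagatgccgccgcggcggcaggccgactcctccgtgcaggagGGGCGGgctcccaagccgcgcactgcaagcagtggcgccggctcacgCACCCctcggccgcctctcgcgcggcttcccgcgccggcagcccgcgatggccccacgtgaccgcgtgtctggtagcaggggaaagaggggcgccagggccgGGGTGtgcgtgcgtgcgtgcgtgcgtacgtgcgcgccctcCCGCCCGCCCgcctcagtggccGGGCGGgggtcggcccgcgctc
ZBTB25: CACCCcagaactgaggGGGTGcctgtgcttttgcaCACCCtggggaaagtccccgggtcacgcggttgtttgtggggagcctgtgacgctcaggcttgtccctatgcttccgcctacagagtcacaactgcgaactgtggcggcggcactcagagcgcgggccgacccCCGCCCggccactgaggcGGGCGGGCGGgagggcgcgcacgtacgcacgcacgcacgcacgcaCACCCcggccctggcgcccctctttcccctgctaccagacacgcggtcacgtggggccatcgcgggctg
KLF4: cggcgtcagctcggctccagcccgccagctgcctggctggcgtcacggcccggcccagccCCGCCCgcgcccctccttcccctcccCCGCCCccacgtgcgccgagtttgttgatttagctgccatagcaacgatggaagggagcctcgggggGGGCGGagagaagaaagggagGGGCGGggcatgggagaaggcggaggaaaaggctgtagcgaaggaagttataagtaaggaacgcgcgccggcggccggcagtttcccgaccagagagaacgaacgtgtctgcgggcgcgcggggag
ZBTB43: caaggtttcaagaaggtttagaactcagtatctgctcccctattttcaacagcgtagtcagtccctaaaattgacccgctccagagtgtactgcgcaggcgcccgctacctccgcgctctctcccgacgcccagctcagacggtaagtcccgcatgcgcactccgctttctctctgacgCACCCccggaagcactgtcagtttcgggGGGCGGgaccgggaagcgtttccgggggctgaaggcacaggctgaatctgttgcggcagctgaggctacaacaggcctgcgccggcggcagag
KLF5 first start: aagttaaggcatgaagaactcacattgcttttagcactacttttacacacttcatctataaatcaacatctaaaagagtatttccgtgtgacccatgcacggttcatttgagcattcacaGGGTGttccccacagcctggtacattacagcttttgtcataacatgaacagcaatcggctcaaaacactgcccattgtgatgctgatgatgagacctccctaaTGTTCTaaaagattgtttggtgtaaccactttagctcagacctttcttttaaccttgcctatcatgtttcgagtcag
KLF5 second start: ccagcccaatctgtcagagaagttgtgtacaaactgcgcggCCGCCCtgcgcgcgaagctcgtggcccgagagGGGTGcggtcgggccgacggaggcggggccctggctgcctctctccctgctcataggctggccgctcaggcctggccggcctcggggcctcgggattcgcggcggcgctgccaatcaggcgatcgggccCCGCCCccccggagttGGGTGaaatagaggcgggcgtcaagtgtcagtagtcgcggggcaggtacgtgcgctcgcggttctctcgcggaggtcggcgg

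The first KLF5 window held 1 copy of the hexamer AGAACA, read on its other strand, and the other 5 windows shown held none. The ZBTB1 and KLF4 windows held 4 GC boxes each, and adjacent boxes in ZBTB1 overlap. The first KLF5 window, with 40.7% G and C, held no GC box, while the second, with 71.3% G and C, held 2. Over all 35116 windows of this length, 14.8% held the hexamer, 45.0% the GC box and 59.9% the CACCC box. Windows were matched for 51 of the 61 genes, and of their 94 windows 9.57%, 56.4% and 62.8% held these motifs. The 10 genes not matched were KLF3, KLF10, ZBTB6, ZBTB10, ZBTB16, ZBTB17, ZBTB40, ZBTB41, ZSCAN26 and KLF3-AS1. A match of letters is a description and not a binding site.

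ZBTB1, a BTB factor needed for lymphocyte development, had log2 values of 9.01, 9.06, 9.23 and 8.88 with R1881, against 7.67, 7.98, 7.78 and 7.69 in steroid-deplete medium. The groups were separated by almost a whole log2 unit. The change was 1.26 ± 0.10 (SE, 2.40-fold, adjusted p = 3.62e-07). ZBTB16, also known as PLZF and as the fusion partner of the retinoic acid receptor alpha in some promyelocytic leukaemias, had 9.30, 9.33, 9.50 and 9.15 with R1881, against 8.34, 8.04, 8.28 and 8.31 in steroid-deplete medium. No R1881 array fell within the steroid-deplete range, and the gene rose by 1.08 ± 0.10 (SE, 2.11-fold, adjusted p = 1.47e-06). In both genes the lowest R1881 value was that of replicate 4.

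KLF4, a factor of epithelial differentiation and of reprogramming to pluripotency, had 6.49, 6.55, 6.71 and 6.65 with R1881, against 5.58, 5.74, 5.51 and 5.38 in steroid-deplete medium. Its arrays did not overlap. The change of 1.05 ± 0.09 (SE, 2.07-fold, adjusted p = 1.26e-06) lay just inside the 2-fold limit, and was 0.99 without steroid-deplete replicate 4.

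ZBTB43 showed the largest change of the 61 genes by RMA. It had 6.43, 6.45, 6.71 and 6.23 with R1881, against 8.00, 8.25, 8.03 and 7.99 in steroid-deplete medium. Every R1881 array lay more than a log2 unit below every steroid-deplete array, and the gene fell by 1.61 on the log2 scale (SE 0.11) to 0.327 of its steroid-deplete level (adjusted p = 5.78e-08). KLF10, first described as a transcript induced early by TGF-beta, had 6.44, 6.62, 6.59 and 6.19 with R1881, against 7.43, 7.64, 7.45 and 7.56 in steroid-deplete medium. It fell by 1.06 on the log2 scale (SE 0.10, adjusted p = 2.92e-06), and by 0.97 without R1881 replicate 4. With the arrays centred on their medians its change was -0.96, so KLF10 also lies at the edge of the limit.

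**Figure D2:**
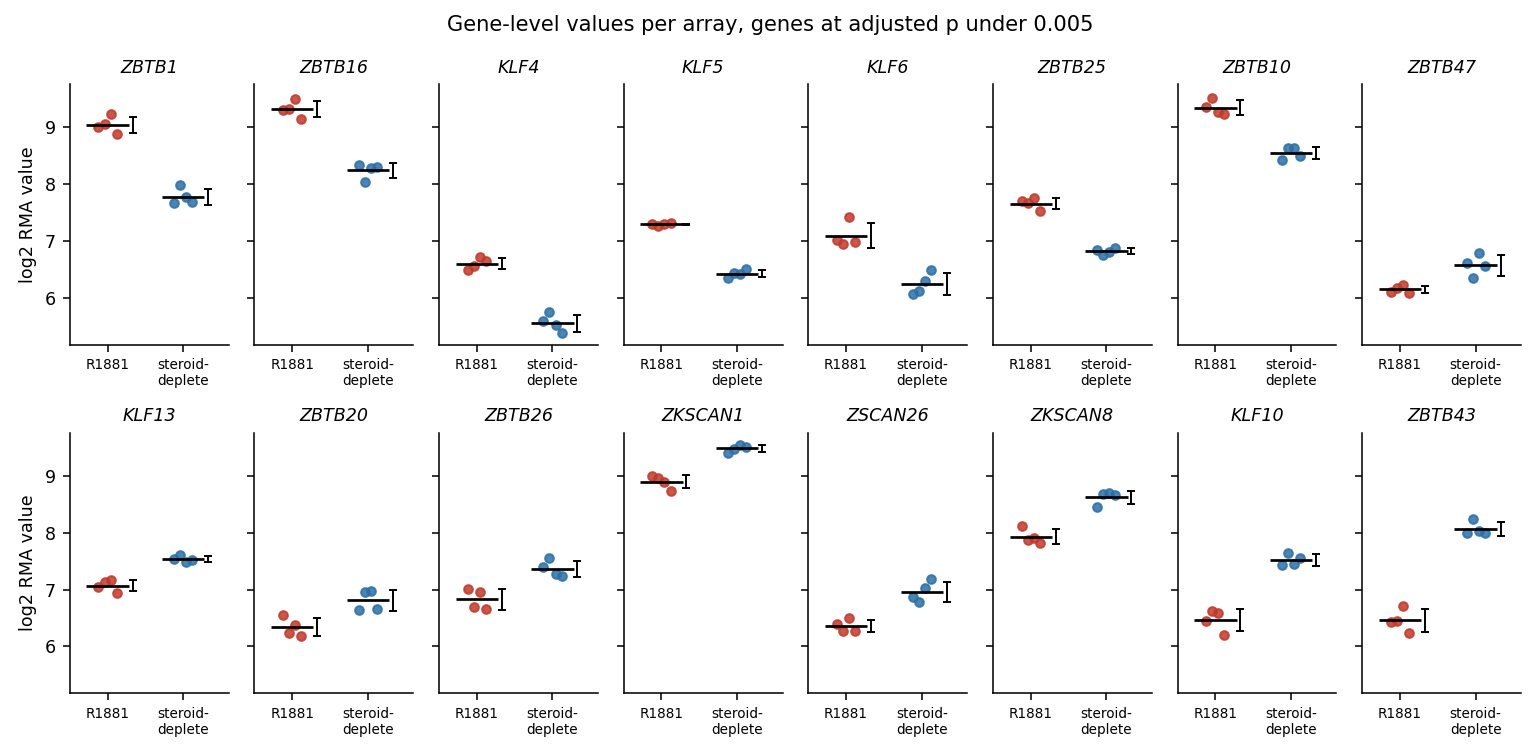
Gene-level log2 RMA values of the 16 genes at an adjusted p under 0.005, 1 panel per gene, with the 4 R1881 arrays in red on the left and the 4 steroid-deplete arrays in blue on the right (line, mean; bracket, SD). In all 16 panels the groups do not overlap, with 7 genes higher and 9 lower with R1881.

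Of the KLF genes, 3 of 16 rose and 2 fell at an adjusted p under 0.05, and the median change of the 16 was 0.06 on the log2 scale. KLF5, which promotes proliferation in many epithelia, stood just outside the 2-fold limit, with 7.29, 7.27, 7.29 and 7.31 with R1881, against 6.35, 6.43, 6.41 and 6.50 in steroid-deplete medium. The R1881 arrays were almost identical, and the rise was 0.87 ± 0.07 (SE, adjusted p = 8.79e-07). KLF6, described as a tumour suppressor in prostate, had 7.02, 6.95, 7.42 and 6.98 with R1881, against 6.06, 6.11, 6.30 and 6.48 in steroid-deplete medium, and rose by 0.85 ± 0.12 (SE, adjusted p = 9.90e-05). Both groups of KLF6 were more spread than those of KLF5. KLF13, an activator of the chemokine gene CCL5 in T cells, averaged 7.07 ± 0.10 with R1881 and 7.54 ± 0.05 in steroid-deplete medium (SD, n = 4 each), and fell by 0.47 on the log2 scale (adjusted p = 0.000494). KLF9, a steroid- and thyroid hormone-responsive factor in other tissues, had 7.83, 7.69, 8.06 and 7.24 with R1881, against 7.54, 7.45, 7.67 and 7.59 in steroid-deplete medium. The low R1881 value was again that of replicate 4, the groups overlapped, and the difference of 0.14 ± 0.14 (SE) did not pass the test (adjusted p = 0.498). Without that array it was 0.30 and passed (adjusted p = 0.0433), and without R1881 replicate 3 it was 0.03 (adjusted p = 0.905).

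The ZBTB genes split in both directions, with 5 of 29 higher and 7 lower at an adjusted p under 0.05. Their median change was -0.04 on the log2 scale, and 0.06 once arrays were centred on their medians. ZBTB25, the head-to-head neighbour of ZBTB1, had 7.70, 7.66, 7.75 and 7.52 with R1881, against 6.84, 6.75, 6.81 and 6.88 in steroid-deplete medium. Its rise was 0.84 ± 0.08 (SE, adjusted p = 2.64e-06), with no overlap between the groups. ZBTB10, a repressor of SP genes, had 9.37, 9.52, 9.27 and 9.24 with R1881, against 8.43, 8.64, 8.63 and 8.50 in steroid-deplete medium. It rose by 0.80 ± 0.09 (SE, adjusted p = 1.07e-05). ZBTB2 rose by 0.36 ± 0.09 (SE, adjusted p = 0.0075).

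Lower ZBTB genes moved by less than 2-fold, apart from ZBTB43. ZBTB26 had 7.01, 6.69, 6.96 and 6.65 with R1881, against 7.40, 7.55, 7.27 and 7.23 in steroid-deplete medium, and fell by 0.54 on the log2 scale (SE 0.11, adjusted p = 0.00142). ZBTB20, which represses alpha-fetoprotein in liver, averaged 6.34 ± 0.17 with R1881 and 6.81 ± 0.18 in steroid-deplete medium (SD, n = 4 each), a change of -0.47 (adjusted p = 0.0045). ZBTB47 averaged 6.15 ± 0.07 with R1881 and 6.58 ± 0.18 in steroid-deplete medium, a change of -0.43 (adjusted p = 0.0036). For these 3 genes, centring the arrays left the direction in place and raised the adjusted p to 0.00517 for ZBTB26, 0.0145 for ZBTB20 and 0.0151 for ZBTB47. ZBTB33, the methyl-CpG-binding factor Kaiso, ZBTB14 and ZBTB3 had changes of -0.44, -0.36 and -0.33 at adjusted p-values of 0.0113, 0.0345 and 0.0218. With centred arrays ZBTB33 passed (adjusted p = 0.0294), and ZBTB14 (-0.26, adjusted p = 0.0806) and ZBTB3 (-0.23, adjusted p = 0.0719) did not. ZBTB41, at 9.55 ± 0.14 with R1881 and 9.80 ± 0.14 in steroid-deplete medium (SD, n = 4 each), did not pass the test (-0.25, adjusted p = 0.0644). It passed with quantile-normalised arrays (-0.34, adjusted p = 0.00563), without R1881 replicate 1 (adjusted p = 0.0339) and without steroid-deplete replicate 1 (adjusted p = 0.0215), and had an adjusted p of 0.196 with centred arrays.

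Of the 12 ZSCAN genes 4 fell and none rose at an adjusted p under 0.05, and of the 4 ZKSCAN genes 2 fell and none rose, beside 19.8% lower and 10.5% higher of all clusters. These are 33.3% of the ZSCAN and 50% of the ZKSCAN genes. With so few genes, no difference from the background is read from these counts. ZSCAN10, ZSCAN4 and ZSCAN12 had changes above 0, of 0.17, 0.05 and 0.01, that did not pass. Centring or quantile normalisation of the arrays left 2 lower ZSCAN genes and 2 lower ZKSCAN genes. With Iter-PLIER values 6 ZSCAN and 2 ZKSCAN genes were lower, beside 3882 of the 16309 clusters. ZKSCAN8 had 8.12, 7.88, 7.90 and 7.82 with R1881, against 8.46, 8.69, 8.70 and 8.66 in steroid-deplete medium. It fell by 0.70 on the log2 scale (SE 0.09, adjusted p = 4.52e-05), the nearest lower gene outside the 2-fold limit. ZKSCAN1, whose transcripts also give an abundant circular RNA, had 9.01, 8.96, 8.89 and 8.74 with R1881, against 9.41, 9.47, 9.55 and 9.52 in steroid-deplete medium, and fell by 0.59 on the log2 scale (SE 0.08, adjusted p = 9.55e-05). ZSCAN26 had 6.40, 6.27, 6.49 and 6.27 with R1881, against 6.86, 6.78, 7.02 and 7.18 in steroid-deplete medium, and fell by 0.60 on the log2 scale (SE 0.10, adjusted p = 0.000356). In all 3 genes the groups were fully separated. ZSCAN18 averaged 7.06 ± 0.02 with R1881 and 7.29 ± 0.03 in steroid-deplete medium (SD, n = 4 each), a small difference of -0.23 between very tight groups (adjusted p = 0.026). It was -0.13 with centred or quantile-normalised arrays (adjusted p = 0.175 and 0.201) and then no longer passed, nor did it with the replicate block (adjusted p = 0.0766), without R1881 replicate 1 or 2, or without steroid-deplete replicate 1 or 4 (adjusted p = 0.0579 to 0.0714). ZSCAN2 and ZSCAN32 had changes of -0.40 and -0.26 (adjusted p = 0.0058 and 0.0316), and with centred arrays ZSCAN32 did not pass (-0.16, adjusted p = 0.145).

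ZSCAN and ZKSCAN genes are gathered in the cluster beside the MHC on chromosome 6, where 6 of them were measured. RefSeq places ZKSCAN8, ZSCAN9 and ZKSCAN4 next to each other there among protein-coding genes. Their changes were -0.70, -0.15 and -0.25 on the log2 scale, and only the first passed the test. The other 3 were ZSCAN26 at -0.60, ZSCAN31 at -0.18 and ZSCAN12 at 0.01. With Iter-PLIER values ZSCAN31 was at -0.73 and passed in limma (adjusted p = 0.0021). On chromosome 9, the neighbours ZBTB6 and ZBTB26 had changes of -0.02 and -0.54, and on chromosome 13, KLF5 and its neighbour KLF12 had 0.87 and 0.07.

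Counted by separation of the arrays, every R1881 value lay above every steroid-deplete value in 8 of the 61 genes and below it in 16, against 11.2% and 18.7% of all clusters. ZSCAN9 and ZSCAN31 were separated in this way without passing the test, and ZBTB14 passed it with overlapping arrays. The 38 genes that did not pass an adjusted p of 0.05 had changes between -0.30 and 0.18. The wider class of ZNF genes, the other large group of C2H2 zinc finger genes on the array, had a median change of -0.15 over 304 clusters, with 12 higher and 80 lower at an adjusted p under 0.05 (28 and 52 with centred arrays, 23 and 60 with quantile-normalised ones), while the median of the 61 genes was -0.11 and that of all clusters -0.003. With centred arrays the ZNF median was -0.05, beside 0.10 for all clusters.

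Related factors and partners were taken from lists of fixed membership, whose counts stand beside the 10.5% higher and 19.8% lower of all clusters. Of 8 other BTB zinc finger genes none rose and 3 fell at an adjusted p under 0.05 (median change -0.14), namely PATZ1 (-0.80), ZNF131 (-0.55) and MYNN (-0.46), and with centred arrays 1 rose and 3 fell. On the list of 24 other SCAN domain factors 20 were measured, of which 2 rose and 6 fell (median -0.03), and with centred arrays 3 rose and 3 fell (median 0.07). SCAND2P, 1 of the 6 lower (-0.29, adjusted p = 0.036), is a pseudogene. ZNF483 fell by 1.18 on the log2 scale (adjusted p = 3.99e-05), ZNF445 fell by 0.84 and ZNF232 fell by 0.42. SP factors share their zinc finger type and GC box binding with KLF proteins. Of 9 SP genes only SP4 passed the test (with centred arrays 3 others rose), with an average of 7.09 with R1881 and 8.10 in steroid-deplete medium, a fall that was only just past 2-fold (SE 0.08 on the log2 scale, adjusted p = 7.57e-07), and a change of -0.90 with centred arrays. The other 8 SP genes had changes of 0.01 to 0.24 and their median with SP4 was 0.09. None of the 4 measured EGR and WT1 genes passed the test (median 0.12), and 1 rose with centred arrays.

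Among 13 corepressors, acetyltransferases and ubiquitin ligases known to act with these factors, 2 rose and 7 fell at an adjusted p under 0.05, with a median change of -0.39, against 10.5% higher and 19.8% lower and a median of -0.003 over all clusters. With centred arrays 3 rose and 7 fell, with a median of -0.28. CTBP1, a corepressor bound by KLF3 and KLF8, averaged 7.82 with R1881 and 9.55 in steroid-deplete medium, and fell by 1.73 on the log2 scale (SE 0.10, adjusted p = 2.54e-08). CTBP2, in the same list, averaged 6.25 with R1881 and 6.24 in steroid-deplete medium and did not pass the test (adjusted p = 0.948). WWP1, a ubiquitin ligase for KLF5, averaged 9.77 with R1881 and 8.89 in steroid-deplete medium, a rise of 0.88 ± 0.10 (SE, adjusted p = 2.03e-05). FBXW7, another ligase for KLF5, fell by 0.48 on the log2 scale, and the deacetylase HDAC2 fell by 0.50. TRIM28, the partner of KRAB domains, had a change of -0.39 (adjusted p = 0.0039).

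Probe sets, groups of a few probes that mostly read single exons, were then set against their gene. The relative change is the change of log2(exon-level intensity + 16) minus that of the gene-level Iter-PLIER value, tested with limma and called at an unadjusted p of 0.001 or less, while the p-values given are adjusted over all probe sets tested. Of 780 probe sets in 60 of the genes, 503 in 59 genes passed the filters on level and distance from the gene. Relative to the gene, 10 were higher and 13 lower, in 12 genes, against 2.77% higher and 0.877% lower of all probe sets tested. KLF5 alone gave 6 of the 13 lower ones.

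Tested probe sets of the genes past the 2-fold limit moved in the direction of their gene, some by much less. The gene value is itself summarised from probes of the gene, and probe sets far from it were filtered out, so probe sets and gene are not independent. In ZBTB1, 8 of 17 probe sets were tested and had changes of 1.09 to 1.55 on the log2 scale. The arrays of the 2 groups did not overlap in any of these 8. The filter on level was passed by 11 of the 17, so some were left out for their distance from the gene. In ZBTB16, 12 of 15 probe sets were tested and had changes of 0.64 to 1.48, again without overlap. In ZBTB43, 7 of 8 were tested and had changes of -1.97 to -1.31. Whether the probe sets left out followed their gene was not tested. No tested probe set of ZBTB1, ZBTB16 or ZBTB43 passed the test relative to its gene. For ZBTB43, probe set 3189594 read 343, 322, 288 and 323 with R1881, against 1388, 1474, 1203 and 1153 in steroid-deplete medium.

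KLF4 and KLF10 held probe sets that moved less than the gene. In KLF4, 10 of 13 probe sets were tested and their changes ran from 0.25 to 1.84. Probe set 3219234 read 584, 618, 573 and 594.5 with R1881, against 491, 515.5, 441 and 544 in steroid-deplete medium, which is a relative change of -1.11 ± 0.15 (SE, adjusted p = 0.0031). Probe set 3219242 of the same gene read 118.5, 162, 197 and 116 with R1881, against 28.9, 31.9, 37.2 and 19.5 in steroid-deplete medium. All 4 steroid-deplete readings of this probe set lay under the level filter of 64, which it passed through R1881 alone. Probe sets 3219227 and 3219236 had relative changes of -1.06 (adjusted p = 0.0039) and -0.83 (adjusted p = 0.026), and the last did not pass when any single array was left out. In KLF10, 9 of 10 probe sets were tested and their changes ran from -1.77 to -0.01, with a median of -0.73. The gene changed by -1.35 by Iter-PLIER. In 6 of these 9 the arrays of the groups did not overlap. Probe set 3147543 read 92.3, 49.8, 84.9 and 103 with R1881, against 96.8, 70.4, 101 and 61.9 in steroid-deplete medium, with wide overlap, while the gene fell. Its relative change was 1.34 ± 0.25 (SE, adjusted p = 0.0141). Without R1881 replicate 1, steroid-deplete replicate 2 or steroid-deplete replicate 4 it was 1.30, 1.21 or 1.24 and did not pass, and against the median of the gene's probe sets it was 0.74 (adjusted p = 0.229). With exon-level RMA values none of the 4 probe sets 3219234, 3219227, 3219236 and 3147543 passed, while 1 other tested probe set of KLF4 did.

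**Figure D3:**
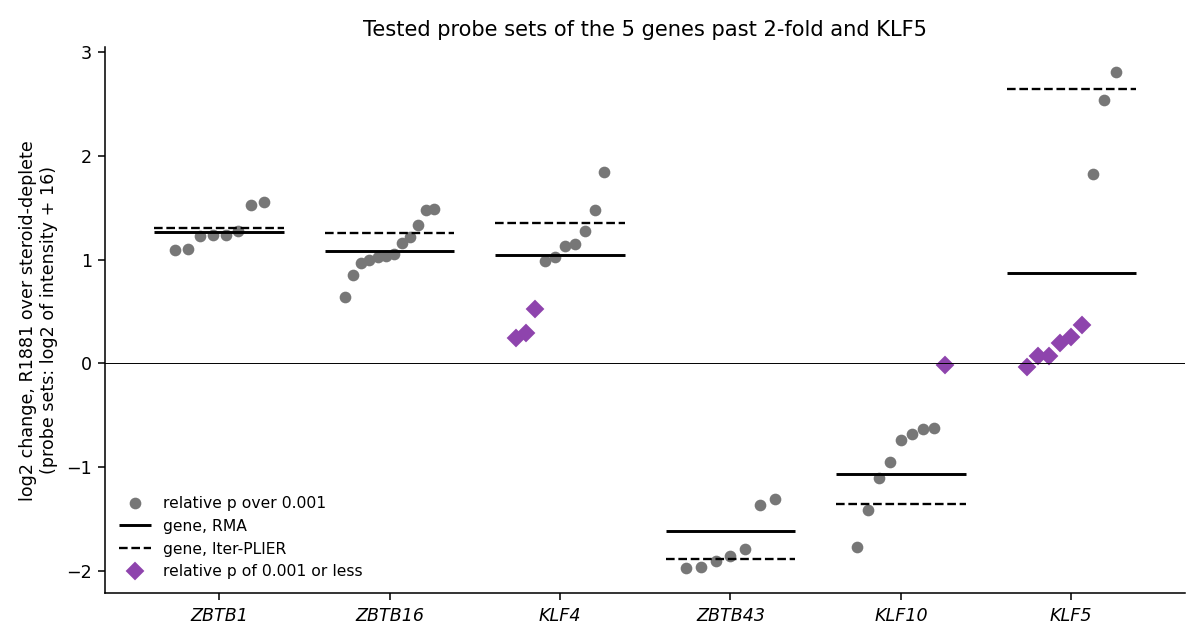
Log2 change of R1881 over steroid-deplete for each tested probe set (points, intensity + 16) of ZBTB1, ZBTB16, KLF4, ZBTB43, KLF10 and KLF5, with the change of the gene by RMA (solid line) and by Iter-PLIER (dashed line), and purple diamonds for probe sets at a relative p of 0.001 or less. The 6 diamonds of KLF5 lie between -0.03 and 0.37, while its other 3 probe sets, dim in steroid-deplete medium, lie between 1.83 and 2.81.

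KLF5 was where the 2 gene-level summaries parted most. Its rise was 0.87 on the log2 scale by RMA and 2.65 by Iter-PLIER, a gap of 1.78, against a gap of at most 0.55 in any of the other 60 genes. Its 9 tested probe sets were chosen for description after their values were seen. Between the means of the groups, 3 had ratios of 5.74 to 9.24 and 6 had ratios of 0.983 to 1.31. The arrays of the groups did not overlap in any of the 3, nor in 2 of the 6, and overlapped in the other 4. Probe set 3493559 read 414, 309, 504 and 311.5 with R1881, against 24.5, 37.0, 45.0 and 60.1 in steroid-deplete medium. Probe set 3493550 read 213, 266, 212.5 and 189 with R1881, against 24.7, 13.8, 29.3 and 32.6 in steroid-deplete medium. Probe set 3493557 was dimmer, with 110.5, 108, 155 and 66.9 with R1881, against 22.4, 19.0, 27.5 and 7.8 in steroid-deplete medium. These 3 were above the level filter of 64 in every R1881 array and below it in every steroid-deplete array, so they entered the test through the R1881 arrays alone. Set against that level instead of the dim readings, the R1881 means were at least 6.01-fold higher for 3493559, 3.44-fold for 3493550 and 1.72-fold for 3493557.

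By contrast, probe set 3493553 read 1073, 1169, 970.0 and 1405 with R1881, against 1278, 1083, 1094 and 1239.8 in steroid-deplete medium. Its arrays overlapped throughout, at intensities far above the filter. Relative to the Iter-PLIER gene value it was lower by 2.68 ± 0.24 on the log2 scale (SE, adjusted p = 0.0004). Probe set 3493551 read 301, 377, 320.4 and 385 with R1881, against 367, 315, 299 and 333 in steroid-deplete medium, and had a relative change of -2.58 (adjusted p = 0.000374). The remaining 4 probe sets had relative changes of -2.57 to -2.28. With exon-level RMA values set against the RMA gene value, the differences were smaller. Probe sets 3493551 and 3493553 then had relative changes of -0.85 and -0.78 and still passed (adjusted p = 0.022 and 0.0155). Probe sets 3493548, 3493549 and 3493552 had -0.34, -0.67 and -0.54 and did not pass (adjusted p = 0.488, 0.0602 and 0.137).

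Which of the KLF5 probe sets differ from the gene depends on the gene value. Against the median of the gene's own probe sets, 3493559 and 3493550 had relative changes of 2.09 and 1.82, those of 3493551, 3493553 and 3493570 were -0.65, -0.75 and -0.35, and these 5 passed the test. The 3 higher probe sets were dim in steroid-deplete medium and the 6 others had means above the level in both groups, so the 2 sets are not measured equally well. Positions of the probe sets were not analysed here, so the split cannot be placed on the 2 annotated starts whose sequences are given above.

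**Figure D4:**
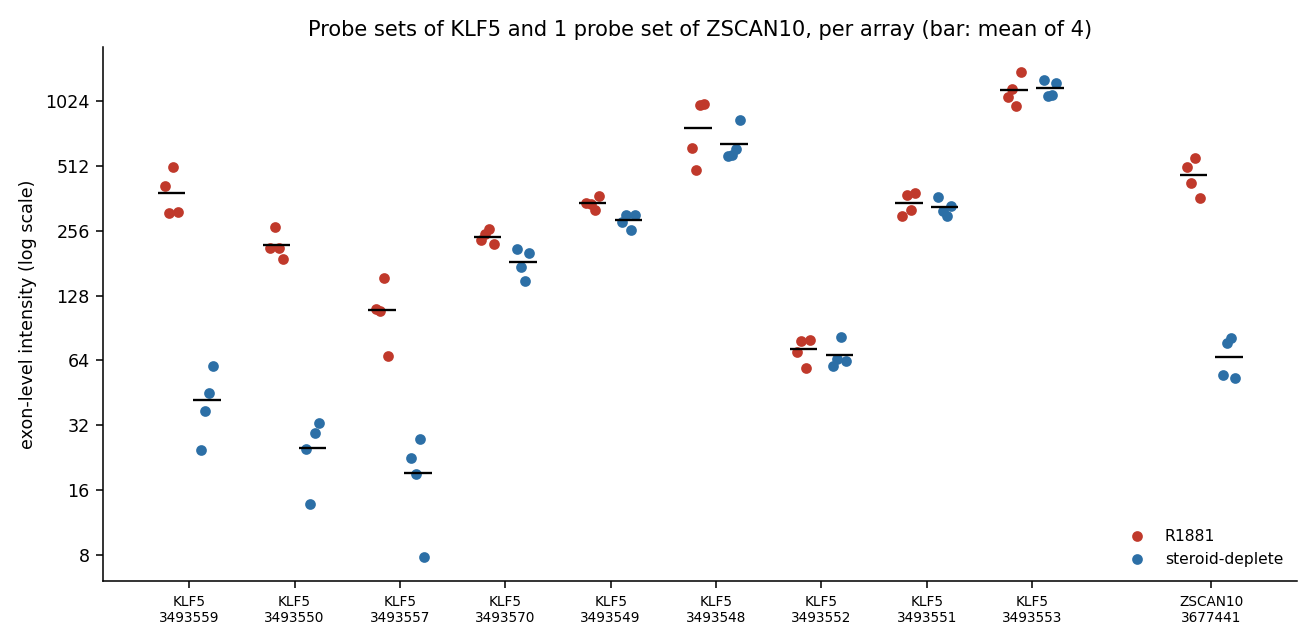
Exon-level intensity on a log axis for the 9 tested KLF5 probe sets and ZSCAN10 probe set 3677441, with the 4 R1881 arrays in red on the left and the 4 steroid-deplete arrays in blue on the right of each (bar, mean). Probe sets 3493559, 3493550 and 3493557 of KLF5 and the ZSCAN10 probe set do not overlap between the groups, with the steroid-deplete arrays of these KLF5 probe sets below 64. Of the other 6 KLF5 probe sets, 4 overlap and 2 lie close together without overlap.

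ZSCAN10, a factor of pluripotent cells, held the reverse pattern in a gene that did not pass the test, and was also picked after its values were seen. The gene averaged 5.61 with R1881 and 5.45 in steroid-deplete medium (adjusted p = 0.305). Its probe set 3677441 read 509, 425, 557 and 365 with R1881, against 54.7, 76.9, 81.1 and 52.8 in steroid-deplete medium, a ratio of 6.99 between the means. The relative change was 2.41 ± 0.20 (SE, adjusted p = 0.000261), and it passed the test in all alternatives that included the probe set. The other 4 tested probe sets of ZSCAN10 had changes of 0.04 to 0.70 on the log2 scale. Whether probes of 3677441 also read RNA of another gene was not tested.

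Single probe sets stood apart in other genes with smaller differences. In ZBTB10, which rose, probe sets 3104726, 3104729 and 3104730 had relative changes of -0.90, -0.84 and -0.82, with changes of 0.15 to 0.24 in their own intensities. In KLF6, which also rose, probe set 3274417 had a relative change of -1.19 (adjusted p = 0.0116). In the lower genes ZBTB47, ZBTB20, ZBTB26, KLF13 and ZSCAN18 it was the higher side that held the calls, with 7 probe sets at 0.64 to 1.00 whose own intensities changed by -0.23 to 0.28. KLF3 added 1 probe set at 0.60. With exon-level RMA values, ZBTB47 and ZBTB26 each held 1 call, and ZBTB20, KLF13, ZSCAN18 and KLF3 held none. Against the median of the gene's probe sets, ZBTB47 and KLF3 each held 1 call, and ZBTB20, ZBTB26, KLF13 and ZSCAN18 held none.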

How the data were processed

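LNCaP RNA was measured on 8 Human Exon 1.0 ST arrays, each deposited in 4 summaries (32 sets of values). After ribosomal RNA had been reduced and whole transcripts labelled, the authors summarised core probes per gene by RMA with quantile normalisation, as log2 values. Their deposited Iter-PLIER summaries per gene and per probe set hold linear intensity, and for probe sets the methods name PLIER instead. The submitters' notes name hg18. Arrays give no count of molecules, and their number limits the precision.

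Symbols came from the array annotation, and 20 gene-level symbols were updated through RefSeq. Clusters with several symbols were not named. Tests used limma 3.58.1 in R 4.3.3 over all 16309 clusters, without a replicate block. Probe sets were tested with a pseudocount of 16, a level of at least 64 in a treatment, a gene change of at most 10-fold and a distance from the gene of at most 5-fold. Alternatives were Iter-PLIER values, a t-test as in the methods (adjusted by Benjamini-Hochberg, or as Storey's q), clusters above the median, centring, quantile normalisation, trend and robust variances, other limits and gene values, the replicate number as a block, and leaving out arrays. On simulated data limma called 91.0% of gene-level changes of 1.2 (log2), the smallest change simulated. The changes of ZBTB16, KLF4 and KLF10 were smaller than that. Of simulated probe set changes of 1.0 and 1.5 (log2), 76.1% and 92.5% were called.

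The genes and lists were chosen with earlier results of these data known. Genes named are those past the 2-fold limit, those at an adjusted p under 0.005, the brightest of each name group, and up to 3 of each list. Other genes and probe sets were named after their values were seen. Detection p-values and probe positions were not used.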

Additional observations from a re-analysis of the deposited data

Results flagged for a closer look

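In 66 groups of 4 arrays, over the 19 genes and 14 probe sets described by rule or by choice, the gap of the outermost array to its neighbour was set against the group's range (Dixon's test at the 95% level, which chance passes in about 1 of 20 groups). It passed in 5. KLF6 in R1881 replicate 3 was 7.42, above the 6.95 to 7.02 of the other R1881 arrays. ZBTB43 in steroid-deplete replicate 2 was 8.25, above the 7.99 to 8.03 of the other steroid-deplete arrays. Steroid-deplete replicate 1 gave the low value in ZBTB41, at 9.60 against 9.85 to 9.90 in the other steroid-deplete arrays, and in ZKSCAN8, at 8.46 against 8.66 to 8.70. KLF5 probe set 3493548 in steroid-deplete replicate 4 was 837.5, above the 572 to 611 of the other steroid-deplete arrays.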

How the results depend on the processing

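The 3 higher genes past 2-fold became 5 with Iter-PLIER values, which added KLF5 and ZBTB10, and 7 with a 1.5-fold limit. The 2 lower ones became 1 with centred or quantile-normalised arrays and 5 with a 1.5-fold limit. Leaving out 1 array gave 2 to 3 higher and 1 to 2 lower genes past 2-fold, and 8 to 9 higher and 11 to 18 lower genes at an adjusted p under 0.05. The 23 probe sets became 14 with exon-level RMA values, 15 against the median of the gene's probe sets, 10 with a gene change of 2-fold or less, which leaves out KLF5, KLF4, KLF10 and ZBTB10, and 14 to 21 without 1 array (14 or 15 without R1881 replicate 2 or any of the steroid-deplete arrays). The replicate numbers did not pair the arrays, with correlations of -0.10 to 0.10 between arrays of the same number, and with the replicate block 3 genes rose and 2 fell by 2-fold, 8 rose and 13 fell at an adjusted p under 0.05, and 18 probe sets passed. Without R1881 replicate 4 and steroid-deplete replicate 1, which was added once the data had been seen, these counts were 3 and 2, 8 and 14, and 18. KLF4 was not tested among clusters above the median. Of the 61 genes, 7 changed sign with Iter-PLIER values, 5 with centred and 4 with quantile-normalised arrays, and 1 to 3 without 1 array. The 19 genes named by rule and 11 probe sets kept their direction in the alternatives run for them. Of their 456 values, 39 no longer passed (2-fold at an adjusted p under 0.005 for the 5 genes past it, an adjusted p of 0.05 for other genes, p of 0.001 for probe sets), most often KLF4 probe set 3219236 and ZSCAN18, and 7 passed only in the alternative, for ZBTB41 and KLF9. At an adjusted p of 0.05, ZBTB3, ZBTB14, ZSCAN18 and ZSCAN32 were lost with centred or quantile-normalised arrays. With Iter-PLIER values ZBTB2 and ZBTB3 were lost, and KLF3, KLF8, ZSCAN29 and ZSCAN31 were gained. The cause of these shifts was not tested.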

Other observations

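A further 11 transcript clusters carried a ZBTB, ZSCAN, ZKSCAN or KLF symbol together with that of another gene and were left out of the 61. None of them changed by 2-fold at an adjusted p under 0.005 in limma, while at an adjusted p under 0.05 there was 1 higher and 5 lower. Their changes ran from -0.71 to 0.43 on the log2 scale. Of the 61 genes, 54 had the same sign of change by RMA and by Iter-PLIER, and the 7 with opposite signs, KLF1, KLF12, KLF17, KLF3-AS1, ZBTB17, ZBTB18 and ZSCAN12, all had adjusted p-values of 0.47 or more in the RMA fit.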
